A study of Rattus norvegicus with 48 samples.

Results

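Plasma microRNAs (miRNAs) of 12 rats were compared 4 weeks after a bone defect had been drilled into the skull roof, in 6 strong regenerators (rats 2, 5, 17, 21, 23 and 29, labelled good) and 6 weak regenerators (rats 3, 6, 7, 16, 25 and 26, labelled bad). These 12 samples were all samples of the series labelled week 4, out of 48 samples taken from the same rats before surgery (baseline) and at weeks 1, 4 and 8. The question was whether the plasma differed, at this stage of healing, between rats whose defect filled well and rats whose defect filled poorly. Both groups were male and had the same operation. The methods of the study give an age at surgery of 12 weeks, and name the strain Wistar in one place and Sprague-Dawley in another. All rats had blood taken from the tail vein under anaesthesia. On its completion the study chose the rats by the bone volume seen in microCT scans, as the extremes of a larger set. It marks them among the week 8 values, so the groups are named for that outcome and not for bone volume at week 4. The rats come from several of its treatments. Their defects were left empty or held a collagen hydroxyapatite scaffold. That scaffold was used alone, with a plasmid coding for BMP2 and miR-590-5p, or with vesicles of mesenchymal stromal cells. By the study's account the strong group held rats of each kind, and those with the scaffold alone were the most frequent. The weak group held none with the scaffold alone, and its most frequent kind had the plasmid. The study found significant treatment differences in bone volume and defect coverage only at the time compared here. Rats with the plasmid then differed from those with the scaffold alone in both. In the study's reading the plasmid seemed to slow healing up to then. The treatment of a rat is not in the labels, so regeneration and treatment cannot be told apart. No sample of an unoperated rat of the same age was used here, so the comparison was between the groups at one time.

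A miRNA is a short RNA, cut from a hairpin, that guides a silencing complex to messenger RNAs. The complex pairs with them mainly through bases 2 to 8 of the miRNA, its seed, so miRNAs with one seed form a family with overlapping targets. Cells release miRNAs into plasma within vesicles, bound to proteins or when they break, so that plasma mixes miRNAs of red blood cells, platelets, liver, muscle and other tissues, and fewer releasing cells cannot be told apart from less RNA per cell.

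The sequences of the miRNAs on which the comparison turned, because they lay closest to a difference or belong to a group described in the text, are given 5′ to 3′ with the seed in capitals. They were taken by name from RefSeq on the rat genome build GRCr8, where 14 of the 18 miRNAs named by the rule of the analysis had an entry.
miR-455-3p: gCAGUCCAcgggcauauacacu
miR-140-3p: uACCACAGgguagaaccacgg
miR-450a-5p: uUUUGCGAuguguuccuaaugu
miR-375-3p: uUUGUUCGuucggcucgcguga
miR-34b-3p: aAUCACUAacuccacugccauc
miR-125b-5p: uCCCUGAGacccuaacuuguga
miR-10b-5p: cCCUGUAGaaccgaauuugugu
miR-205: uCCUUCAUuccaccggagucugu
let-7c-5p: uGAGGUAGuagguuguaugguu
let-7g-5p: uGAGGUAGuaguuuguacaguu
let-7i-5p: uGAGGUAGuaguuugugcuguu
On that build miR-455-3p lies at chr5:81704881-81704902 on the plus strand, within the bounds of Col27a1, a fibrillar collagen gene of cartilage. miR-140-3p lies at chr19:52375353-52375373 on the plus strand, within Wwp2, a ubiquitin ligase gene. miR-10b-5p lies at chr3:80035886-80035907 on the plus strand, within the bounds of Hoxd4. miR-125b-5p lies at chr11:29732588-29732609 on the plus strand and within no protein-coding gene of the table, on the chromosome that also holds a copy of let-7c-5p at chr11:29688127-29688148. Among the 14 with an entry no seed occurred more than once, so by these entries each stood for a family of its own. The let-7 seed GAGGUAG was shared by 9 of the miRNAs counted, and the seeds of miR-455-3p, miR-140-3p, miR-375-3p and miR-205 by no other miRNA with an entry. That of miR-10b-5p was shared by no other entry either, but a seed read this way depends on the base at which the entry starts. miR-10a-5p, of like name, was also counted and had a log2 fold change of -0.31 ± 0.23.

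Levels are given as RPM, reads per 1000000 miRNA reads of a library. The week 4 libraries held between 489502 and 1514610 miRNA reads, so that 10 RPM stood for 4.90 to 15.1 reads. Of the 645 miRNAs listed, 588 had a read at week 4, and 311 reached 10 RPM on average over the 12 rats. Depth came to 918158 ± 306416 (SD, n = 6) reads in strong and 989293 ± 353105 in weak regenerators, and detection to 456 ± 18.9 against 467 ± 13.9 miRNAs. The log2 ratio of miR-451-5p to miR-23a-3p, a measure of burst red blood cells, was 2.58 ± 0.724 against 2.53 ± 0.522. The spike-in UniSp2, added at extraction, gave 46.2 ± 9.09 reads per 1000 miRNA reads in strong and 37.6 ± 9.15 in weak regenerators. None of the 6 such measures differed beyond the spread between rats (two-sided exact permutation test over all groupings of the 12 rats, smallest p adjusted over the 6 measures = 0.844).

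No miRNA was called different between strong and weak regenerators at week 4. Of 588 miRNAs tested with edgeR's quasi-likelihood test, 0 (0%) had a false discovery rate (FDR) under 0.05, and the smallest FDR was 0.798. At an unadjusted p under 0.05 there were 10 miRNAs (1.7% of those tested) with a higher level in strong regenerators and 12 (2.04%) with a lower level, together 22. DESeq2 also called 0 and had 9 at an unadjusted p under 0.05. With libraries scaled to UniSp2 the 22 became 71, of which 3 were higher in strong rats, and the median fold change (log2) over the 311 abundant miRNAs moved from 0.02 to -0.33. The fold changes given here are relative to the other miRNAs.

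Relative to the other miRNAs, the differences that the data leave possible were under 2-fold for most of the abundant miRNAs. Over the 311 miRNAs with a mean of at least 10 RPM, the median standard error of the log2 fold change was 0.26, and 275 fold changes lay within 0.5 of 0 on the log2 scale. The 95% interval lay within a 2-fold difference in either direction for 234 of the 311 (75.2%). A fold change over 2 was fitted for 5. For none of the 311 (0%) were the levels of the 6 strong and the 6 weak rats apart without overlap. The spread between rats was alike in both groups, with a median SD of the log2 level of 0.44 in each.

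**Figure D1:**
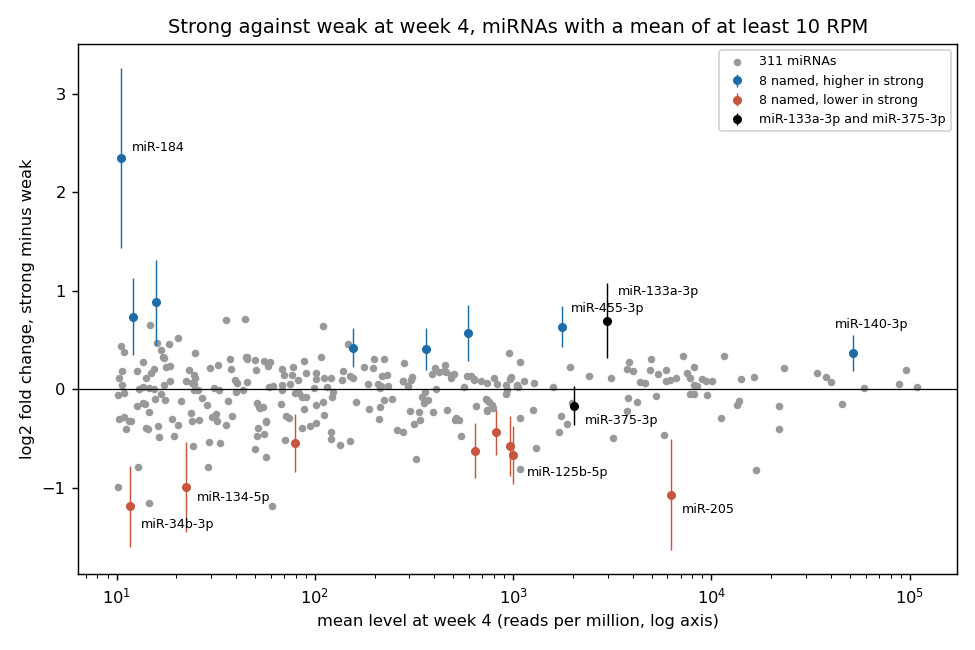
Log2 fold change between strong and weak regenerators at week 4 (vertical axis) against the mean level in RPM (log axis) for 311 miRNAs; coloured points are the 8 higher and the 8 lower miRNAs with the smallest p, black points miR-133a-3p and miR-375-3p, and bars the standard error. Most points lie within 0.5 of 0, and miR-184, with a log2 fold change of 2.35, rests on 1 rat.

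The miRNA with the smallest p among those higher in strong regenerators was miR-455-3p, which together with miR-140-3p is known for its high level in cartilage. Its level was 1454 RPM in the lowest, 1969 RPM at the median and 3625 RPM in the highest strong rat, against 1062, 1378 and 1644 RPM in weak rats. All 6 strong rats lay above the median of the weak rats and 4 lay above every weak rat, but rats 23 and 29 lay within the range of the weak group. The mean was 2136 ± 818 RPM in strong and 1376 ± 208.05 RPM in weak regenerators (SD, n = 6 each), a 1.55-fold difference (log2 0.63 ± 0.21 SE, 95% interval 0.20 to 1.07, edgeR FDR = 0.798). The two-sided exact permutation test gave p = 0.0216, which became 0.936 when adjusted over the 311 miRNAs.

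The other arm of that hairpin, miR-455-5p, had a level of 412 ± 139 RPM in strong and 310 ± 52.2 RPM in weak regenerators (log2 0.41 ± 0.21). Its lowest rat was a strong one, at 247 RPM, and 3 strong rats lay above every weak rat. miR-140-3p was among the most abundant miRNAs of the plasma. Strong rats ranged from 48203 to 75864 RPM with a median of 54474 RPM, and weak rats from 35248 to 59921 RPM with a median of 44278 RPM. All 6 strong rats again lay above the median of the weak rats, and 4 weak rats lay below every strong rat. Its fold change was 1.29 (log2 0.37 ± 0.18, exact permutation p = 0.0476, adjusted p = 0.936). The other arm, miR-140-5p, had 285 ± 103 against 270 ± 85.4 RPM, a log2 fold change of 0.08 ± 0.27. All 4 members of the cartilage list were thus higher on the fitted scale, at a median log2 fold change of 0.39, where 52.4% of the 311 miRNAs lay above 0 and their median was 0.02. One of the 4, miR-455-3p, had an unadjusted p under 0.05, and 0 were called. Leaving out each rat in turn moved the median of the list between 0.31 and 0.46.

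**Figure D2:**
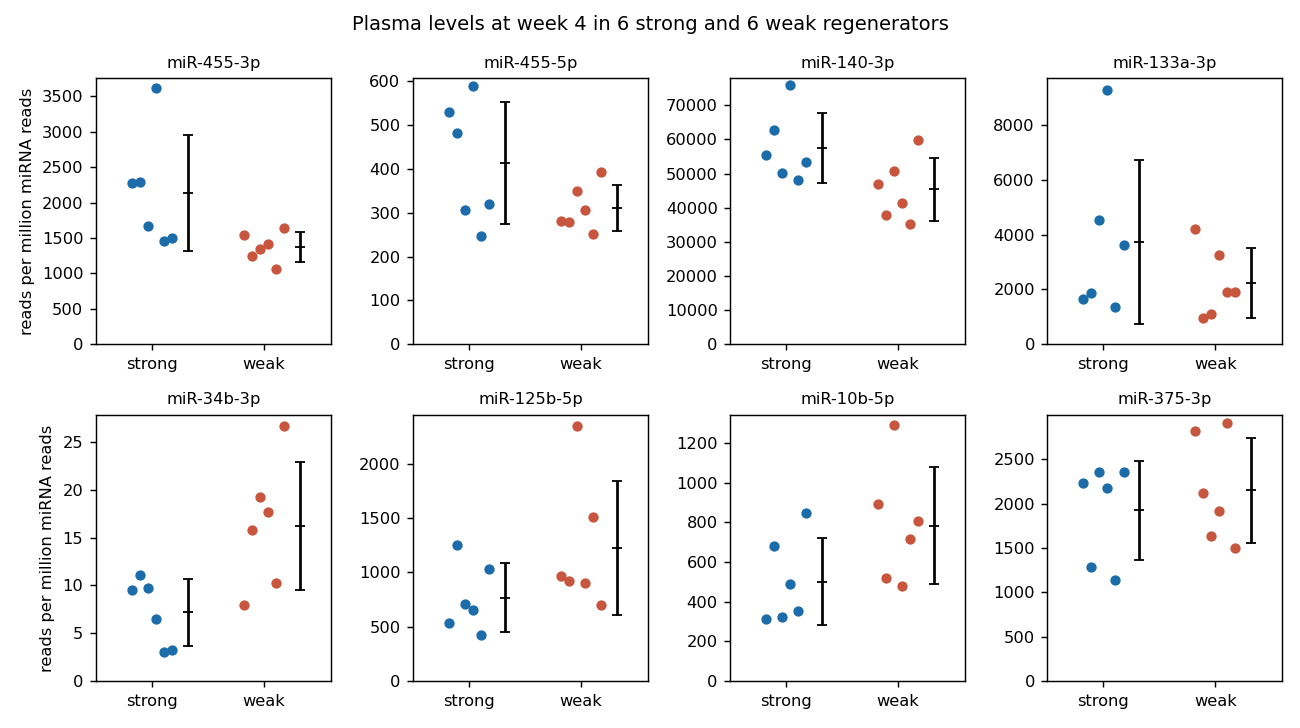
Level of 8 miRNAs in each of the 12 rats at week 4, in RPM on linear axes that start at 0; points are rats, and the black mark and bar are the mean and SD of 6 rats. The groups overlap in all 8 panels, least for miR-455-3p and miR-34b-3p, where 4 of 6 rats of the higher group lie above every rat of the lower one.

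miR-133a-3p, which skeletal and heart muscle express at high levels, had been singled out by the study for a difference over all time points. At week 4 it was at 1374 RPM in the lowest, 2732 RPM at the median and 9270 RPM in the highest strong rat. Weak rats had 952, 1906 and 4210 RPM. Rats 17 and 21 lay above every weak rat and weak rats 6 and 7 below every strong one, and 3 of 6 strong rats were above the weak median. The log2 fold change was 0.70 ± 0.38 (95% interval -0.10 to 1.49, edgeR FDR = 0.798, exact permutation p = 0.294). It was 0.25 without strong rat 21 and 0.98 without weak rat 3.

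miR-133a-5p, the other arm, had 20.6 ± 9.87 RPM in strong and 11.1 ± 9.001 RPM in weak regenerators, a log2 fold change of 0.88 ± 0.43. miR-133b-3p, which shares the seed of miR-133a-3p, had a log2 fold change of 0.70 ± 0.42, and miR-1-3p, transcribed together with miR-133a, one of 0.71 ± 0.47. miR-206-3p, found in skeletal muscle, had one of 0.44 ± 0.54. Of the 9 listed muscle miRNAs 6 had at least 10 RPM, all 6 higher in strong rats on the fitted scale, at a median of 0.70. By the median RPM, miR-1-3p and miR-206-3p were lower in strong rats, at 29.5 against 36.6 and at 7.04 against 9.60. None of the 9 had an unadjusted p under 0.05. All 6 were highest in strong rat 21, whose summed level was 10008 RPM, when the other 11 rats ranged from 1023 to 4756 RPM. Without that rat the median was 0.13, with 5 of 6 above 0. The other 3 were under 10 RPM, with miR-208a-3p, from a heart myosin gene, at 0.12 ± 0.95, miR-208b-3p at -0.080 ± 0.57 and miR-499-5p at 0.26 ± 0.44.

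miR-375-3p, a miRNA of pancreatic islets and of other endocrine and epithelial cells, was the other one singled out by the study. At week 4 strong rats ranged from 1143 to 2354 RPM with a median of 2202 RPM, and weak rats from 1503 to 2909 RPM with a median of 2019 RPM. The lowest 2 rats were strong and the highest 2 were weak, and 4 of 6 strong rats were above the weak median. The log2 fold change was -0.17 ± 0.20 (95% interval -0.58 to 0.25, edgeR FDR = 0.860, exact permutation p = 0.494), and it lay between -0.26 and -0.08 when each rat was left out in turn. The other listed islet miRNA with at least 10 RPM, miR-7a-5p, had a log2 fold change of -0.61 ± 0.43.

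The other miRNAs in the upper set came from unrelated families. miR-450a-5p lies in the X-linked cluster of miR-322 and miR-503. It had 710 ± 247 RPM in strong and 480 ± 272 RPM in weak regenerators (log2 0.57 ± 0.28), and the highest rat of all was weak rat 25, at 987 RPM. Of the 11 listed miRNAs of this cluster 10 were higher in strong rats, by a median of 0.13, which was close to the median of 0.02 over the 311 miRNAs. miR-503-3p, at 0.45 ± 0.25, came next to miR-450a-5p, and miR-450b-3p, at -0.32 ± 0.31, was the exception. miR-450b-5p, with the same seed as miR-450a-5p, had a log2 fold change of 0.32 ± 0.32.

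miR-378b had 179 ± 45.8 RPM in strong and 133.1 ± 24.7 RPM in weak rats (log2 0.42 ± 0.20), and 4 strong rats lay above every weak one. miR-210-5p, from the hairpin of the hypoxia-induced miR-210, was close to the detection limit, at 4 to 21 reads in a library, with 15.1 ± 6.56 against 9.23 ± 3.83 RPM (log2 0.73 ± 0.39). miR-184, a miRNA of the eye and other epithelia, had the largest fitted log2 fold change of the named miRNAs, at 2.35 ± 0.92. That value came from strong rat 23, at 82.5 RPM or 83 reads. The other 11 rats lay between 0 and 11.6 RPM, the fold change was -0.070 without rat 23, and the exact permutation p was 0.699.

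Among the miRNAs lower in strong regenerators, miR-34b-3p had the smallest p. It belongs to the p53-induced miR-34 family, and its hairpin is highly expressed in ciliated epithelia. Strong rats ranged from 2.98 to 11.1 RPM with a median of 7.98 RPM, and weak rats from 7.96 to 26.6 RPM with a median of 16.7 RPM. All 6 strong rats were below the weak median and 4 weak rats were above every strong rat. The counts behind these levels were 3 to 24 reads a library. The means were 7.17 ± 3.48 and 16.3 ± 6.70 RPM (log2 -1.19 ± 0.41, 95% interval -2.04 to -0.34, edgeR FDR = 0.798), and the exact permutation p was 0.0173, or 0.936 when adjusted over the 311 miRNAs. miR-34c-3p, which has the same seed and is transcribed together with it, was at 7.03 RPM with a log2 fold change of -0.34 ± 0.44, and miR-34a-5p, the member expressed most widely, at -0.22 ± 0.18.

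miR-125b-5p and miR-10b-5p are both abundant in mesenchymal and vascular cells. miR-125b-5p was at 423, 680 and 1255 RPM in the lowest, the median and the highest strong rat, and at 697, 942 and 2351 RPM in weak rats. Strong rats 2, 21 and 23 lay below every weak rat, and weak rats 7 and 25 above every strong rat. The log2 fold change was -0.67 ± 0.29, and it was -0.35 without weak rat 7 and -0.90 without strong rat 5. Of the other 2 miRNAs with its seed, miR-125a-5p was at -0.36 ± 0.23 and miR-351-5p, of the miR-322 cluster, at 0.13 ± 0.28. miR-10b-5p, from the HoxD locus, had 501 ± 220 RPM in strong and 784 ± 295 RPM in weak regenerators (log2 -0.62 ± 0.28), and 3 strong rats were below every weak rat.

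miR-134-5p is one of the many miRNAs of the imprinted Dlk1-Dio3 region, which are expressed in brain, muscle and mesenchymal cells. It had 14.2 ± 9.72 RPM in strong and 30.8 ± 22.5 RPM in weak rats (log2 -0.99 ± 0.46). Of the 21 other miRNAs listed from that region 12 had at least 10 RPM, and 10 of these were lower in strong rats, at a median of -0.31. miR-382-5p, at -0.48 ± 0.35, and miR-487b-3p, at -0.46 ± 0.34, were the lowest of the 12, and miR-369-3p, at 0.46 ± 0.46, was the highest. One member, the low miR-431 with a mean of 8.54 RPM, had an unadjusted p under 0.05, at -1.21 ± 0.53. Without weak rat 25 the median of the list was -0.06.

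miRNAs of epithelia made up 3 of the 8 lower miRNAs. miR-205 is a miRNA of skin and other layered epithelia, and miR-200a-3p and miR-200b-3p come from one hairpin cluster that holds epithelial cells in their state. miR-200a-3p had 691 ± 265 RPM in strong and 938 ± 228 RPM in weak rats (log2 -0.44 ± 0.23), and miR-200b-3p had 63.6 ± 26.1 against 94.7 ± 37.0 RPM (log2 -0.55 ± 0.29). For both, 1 of 6 strong rats was above the weak median. miR-205 had a larger fold change, at -1.07 ± 0.56, but spread far more. It was at 31252 RPM in weak rat 25, at 10496 RPM in strong rat 29 and at 9493 RPM in weak rat 3, and between 1193 and 3844 RPM in the other 9 rats. Its fold change was -0.05 without weak rat 25 and -1.57 without strong rat 29.

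The same 3 rats carried most of the reads of the epithelium list. Summed over its 9 members with at least 10 RPM, weak rat 25 had 98506 RPM, weak rat 3 had 53557 RPM and strong rat 29 had 46903 RPM, and the other 9 rats ranged from 6443 to 16692 RPM. miR-203a-3p of the epidermis held more of these reads than any other member, with 60794 RPM in weak rat 25. All 9 members were lower in strong regenerators on the fitted scale, at a median of -0.55, and none of the 10 listed had an unadjusted p under 0.05. By the median RPM, miR-429 and miR-182 were higher in strong rats, at 956 against 742 and at 86.9 against 79.5. Without weak rat 25 the median was -0.21, with 8 of 9 below 0. The part of these 3 rats' epithelial reads in the other differences was not tested.

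The let-7 family, whose members restrain growth and mark differentiated cells, was lower in strong regenerators for 8 of its 9 members, at a median of -0.43, with none at an unadjusted p under 0.05. let-7c-5p was the member with the smallest p. Strong rats ranged from 460 to 1474 RPM with a median of 696 RPM, and weak rats from 697 to 2184 RPM with a median of 896 RPM (log2 -0.58 ± 0.30). let-7i-5p, which gave the most reads of the family, was at -0.12 ± 0.24 and miR-98-5p at 0.10 ± 0.21. The summed level of the family separated 4 strong rats, at 15667 to 16198 RPM, from all weak rats, whose lowest had 18217 RPM, while strong rat 23 lay just inside that range at 18245 RPM. Strong rat 5, at 32018 RPM, and weak rat 7, at 37034 RPM, stood far above the other 10. The median of the family was -0.67 without strong rat 5, -0.13 without weak rat 7 and -0.38 without both.

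**Figure D3:**
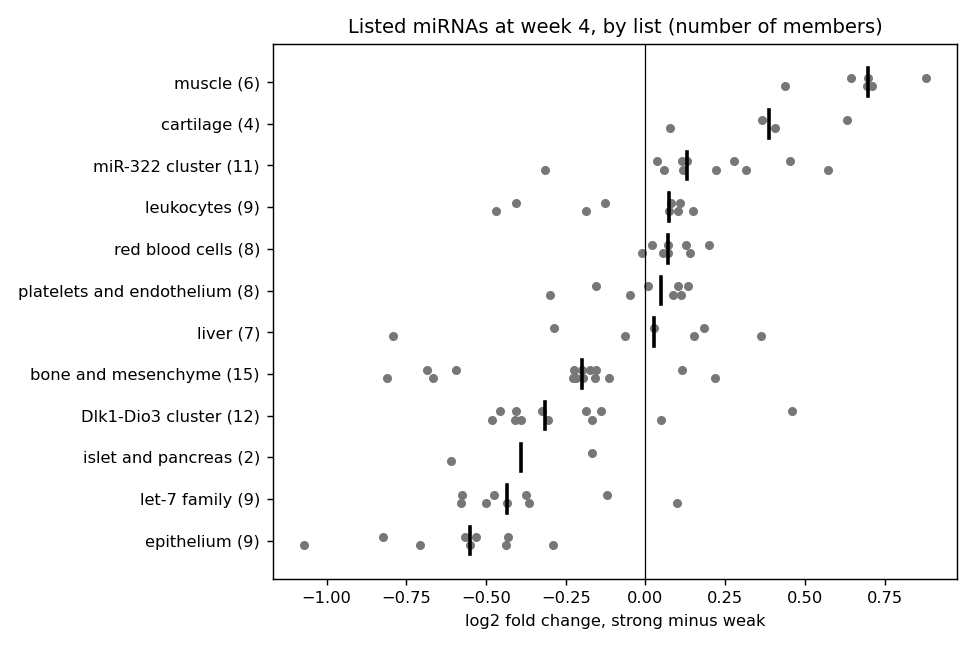
Log2 fold change between strong and weak regenerators at week 4 for the members of 12 lists with a mean of at least 10 RPM; points are miRNAs, the thick mark is the median of the list, and the number of members stands beside its name. Muscle has the highest median, at 0.70, and epithelium the lowest, at -0.55, and no member of any list was called.

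UniSp2 scaling moved miRNAs by unequal amounts, with the log2 fold change of miR-184 going from 2.35 to 2.18 and that of miR-450a-5p from 0.57 to 0.07. The median was then 0.31 for muscle, 0.06 for cartilage, -0.79 for the let-7 family and -1.05 for epithelium, beside the -0.33 of the 311 miRNAs. Under that scaling the lists of blood cells, vessels and liver had medians between -0.36 and -0.25. Without it, as for all values that follow, their medians lay between 0.03 and 0.07. Red blood cell miRNAs, which gave 301409 to 483699 RPM in strong and 335655 to 427465 RPM in weak rats, had a median log2 fold change of 0.07, with miR-451-5p at 0.20 ± 0.24 and miR-16-5p at 0.02 ± 0.21. Liver miRNAs had a median of 0.03, with miR-122-5p, which makes up most of the miRNA of hepatocytes, at 0.03 ± 0.46. miR-194-5p, at -0.79 ± 0.43, and miR-802-3p, at 0.36 ± 0.36, were the outermost members. Platelet and endothelial miRNAs had a median of 0.05, with miR-24-3p at -0.30 ± 0.21 as the outermost member. Leukocyte miRNAs had a median of 0.07, with 2 members lower by more than the rest: miR-146a-5p, a brake on inflammatory signalling, at -0.47 ± 0.29, and miR-150-5p of lymphocytes, at -0.41 ± 0.32.

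Of the 15 miRNAs listed for bone and mesenchyme and counted, all at 10 RPM or more, 13 were lower in strong regenerators, at a median of -0.20, when 52.4% of the 311 abundant miRNAs were higher and their median was 0.02. Of the 15, 1, miR-125b-5p, had an unadjusted p under 0.05, as had 3.74% of the 588 miRNAs. The osteogenic miR-29 family was at -0.17 ± 0.18 for miR-29a-3p, -0.12 ± 0.24 for miR-29b-3p and 0.12 ± 0.17 for miR-29c-3p. miR-138-5p, an inhibitor of osteogenic differentiation, was at 0.22 ± 0.23. miR-31a-5p had the lowest value, at -0.81 ± 0.58, which turned to 0.29 without weak rat 25. miR-204-5p was at -0.69 ± 0.56 and miR-199a-3p at -0.59 ± 0.39, and these were -0.07 without weak rat 25 and -0.06 without weak rat 7. miR-590-5p, which the plasmid coded for, is not listed in the counts.

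As a description of how the measurement behaved, both arms of a hairpin were compared where both had at least 10 RPM. Over 78 such hairpins the log2 fold changes of the arms had a Pearson correlation of 0.37, and 50 hairpins (64.1%) had the same sign in both. The arms came from the same 12 libraries, so they were not independent.

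Whole profiles did not group by regeneration at week 4. With each of the 311 miRNAs scaled to equal variance over the 12 rats, 4 of the 12 rats had a nearest neighbour of their own group, where the mean over all groupings was 5.45 (one-sided exact permutation p = 0.812). Unscaled log2 levels had a Pearson correlation between 0.963 and 0.985 within strong, 0.942 and 0.982 within weak, and 0.938 and 0.990 between strong and weak rats.

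The pair most alike of all 66 held 1 rat of each group, strong rat 5 and weak rat 7, with a correlation of 0.60 between their scaled profiles. The next pair, strong rat 29 and weak rat 25, had 0.39. Both rats 5 and 7 were above all 10 other rats in 22 of the 311 miRNAs and below all of them in 15. The upper 22 included 6 of the 9 let-7 members, with let-7g-5p at 5928 and 7824 RPM when the others had at most 4381 RPM. miR-199a-3p, at 2151 and 3898 RPM, and miR-15b-5p, at 789 and 1011 RPM, were among them, beside 1547 and 754 RPM as the highest of the others. The lower 15 included miR-22-3p, miR-221-3p and miR-223-3p, the last at 9923 and 10362 RPM when the others had at least 10647 RPM. These rats were picked for being alike, so the counts describe them and are no test. With both left out, 0 miRNAs were called and 6 of 10 rats had a neighbour of their own group (one-sided exact permutation p = 0.302).

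**Figure D4:**
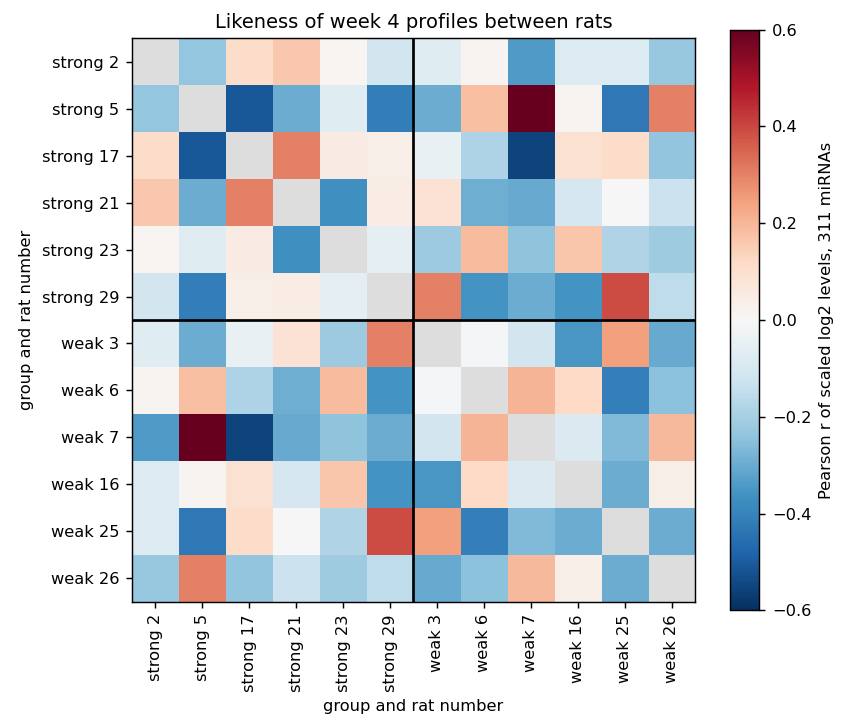
Pearson correlation between the scaled week 4 profiles of each pair of rats over 311 miRNAs, from -0.6 in blue to 0.6 in red, with strong rats first, weak rats after the black line and each rat's own square in grey. The darkest red squares join strong rat 5 to weak rat 7, at 0.60, and neither block of one group is red throughout.

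The difference between the groups at week 4 was set against that at the other times in a fit of all 48 samples. In none of the 3 contrasts, against baseline, week 1 or week 8, did any of 645 miRNAs have an FDR under 0.05 (0%, 0% and 0%), and 38, 30 and 35 had an unadjusted p under 0.05. Because the same rats were sampled each time, values at different times are not independent, and this fit had no term for the rat. With the rat as a block, 1 miRNA was called against week 8, miR-203b-3p (FDR = 0.0311). The share of the 311 miRNAs with a higher level in strong rats was 50.2% at baseline, 52.7% at week 1 and 42.8% at week 8.

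miR-455-3p and miR-140-3p were named for their small p at week 4, which by itself favours a larger difference at that time. The order of the times is therefore no test of a time pattern. Both had their largest difference at week 4. That of miR-455-3p, on the log2 scale, was 0.05 ± 0.21 before surgery and -0.18 ± 0.21 a week after it, then 0.58 ± 0.21 by week 4 and 0.19 ± 0.21 by week 8, and week 4 minus week 1 was 0.76 ± 0.30 (FDR = 0.918). That of miR-140-3p was 0.03, 0.06, 0.31 and 0.04 at the 4 times, each ± 0.16. The median of miR-455-3p went from 4528 RPM at baseline to 1969 RPM at week 4 in strong and from 4477 to 1378 RPM in weak rats, and all 12 rats were lower than at their own baseline. miR-455-5p and miR-140-3p were also lower than at baseline in all 12 rats.

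miR-133a-3p was higher in strong rats at each time. The log2 difference was 1.58 ± 0.52 before surgery, and in the order of the later times 0.68 ± 0.51, 0.64 ± 0.50 and 0.92 ± 0.51. Week 4 minus baseline was -0.94 ± 0.71 (FDR = 0.840). miR-375-3p was lower in strong rats at each time, with -0.68, -0.36, -0.21 and -0.50, each ± 0.23.

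The contrast of week 4 against baseline had its smallest FDR in the let-7 family and a few other miRNAs. The median over the 9 let-7 members was 0.70 at baseline, when 8 of 9 were higher in strong rats, -0.06 at week 1, -0.48 at week 4, when 1 of 9 was, and -0.04 at week 8. let-7c-5p went from 1634 to 696 RPM at the median of the strong rats and from 819 to 896 RPM in the weak rats. It was lower at week 4 than at baseline in 5 of 6 strong rats and higher in 4 of 6 weak rats, and week 4 minus baseline was -1.43 ± 0.46 (FDR = 0.532). miR-125b-5p behaved alike, lower in 6 of 6 strong and higher in 4 of 6 weak rats (-1.53 ± 0.56, FDR = 0.532). miR-199a-3p, at -1.61 ± 0.58, and let-7g-5p, at -1.25 ± 0.48, had the same FDR. let-7c-5p and miR-125b-5p were named for a small p at week 4 with a lower level in strong rats. That by itself favours a contrast below 0 against baseline. miR-199a-3p and let-7g-5p were named after their values were seen, so these 4 contrasts are no test of a time pattern.

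These values leaned on the rats that stood apart. Without strong rat 5, whose let-7 level was high at week 4, 9 miRNAs passed an FDR of 0.05 against baseline: let-7b-5p, let-7c-5p, let-7g-5p, miR-151-5p, miR-15b-5p, miR-17-1-3p, miR-199a-3p and miR-328a-3p were lower by week 4 in strong relative to weak rats, and miR-320-3p was higher. The filter on low levels was then stricter, at 50.1 RPM. Adjusted over all 645, 0 of them passed and the smallest FDR was 0.0854. With both strong rat 5 and weak rat 7 left out, 0 passed.

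miRNAs of epithelia lay on opposite sides of 0 at weeks 1 and 4. On the fitted scale all 9 members with at least 10 RPM were higher in strong rats at week 1, at a median of 0.27, and lower at week 4, at -0.58. By the median RPM, miR-429 and miR-183-5p were lower in strong rats at week 1, at 767 against 808 and at 90.7 against 94.5. The median log2 fold changes of the list were -0.23 at baseline and 0.14 at week 8. miR-205 was at 0.41 ± 0.45 at week 1 and -1.05 ± 0.45 at week 4, and the difference was -1.46 ± 0.64 (FDR = 0.918). Without weak rat 25 that difference was -0.50 ± 0.58, and in the fit of week 4 alone miR-205 was at -0.05 and the median of the epithelial miRNAs at -0.21. miR-203b-3p, chosen after its values were seen, came closest to the threshold against week 8. At week 4 it had medians of 16.8 RPM in strong and 19.1 RPM in weak rats (log2 -0.36 ± 0.34), while at week 8 the medians were 12.3 and 2.11 RPM (log2 2.13 ± 0.47). Week 4 minus week 8 was -2.49 ± 0.58 (FDR = 0.0537), and -2.54 with the rat as a block, where it was the one miRNA called (FDR = 0.0311). At week 8 the weak rats ranged from 1.41 to 9.38 RPM, all under 10 RPM. The contrast thus rests on low week 8 levels more than on the week 4 difference.

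**Figure D5:**
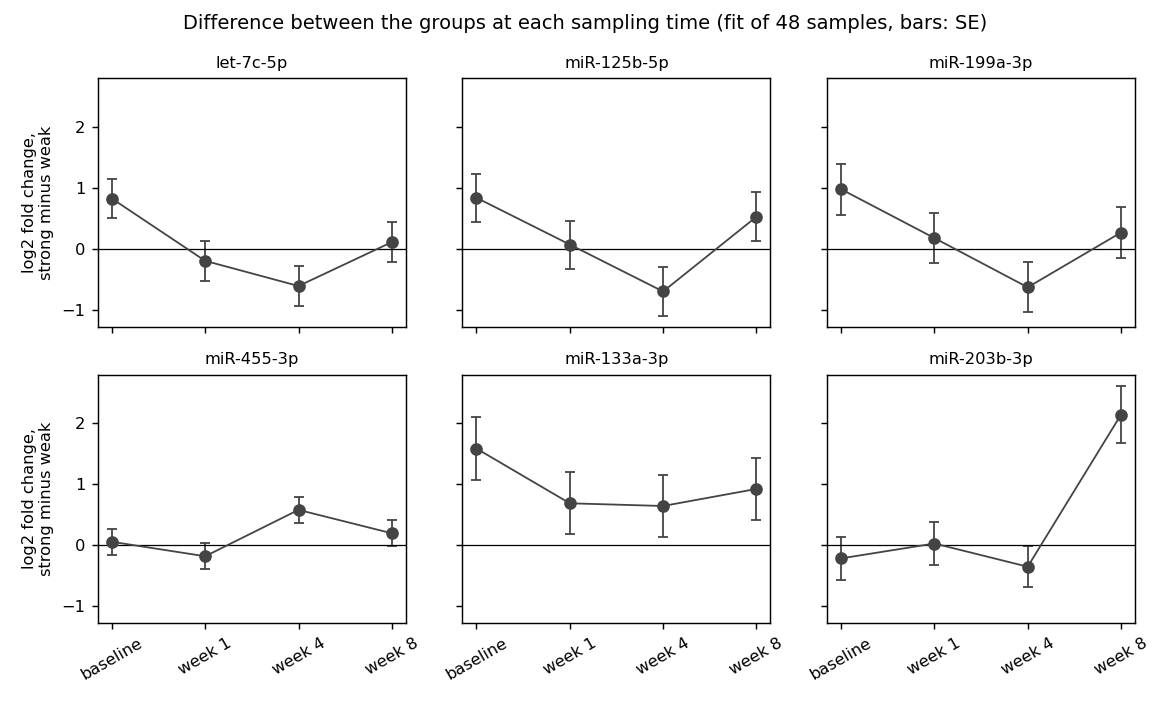
Log2 fold change between strong and weak regenerators at baseline and at weeks 1, 4 and 8 for 6 miRNAs, from the fit of 48 samples; points are fold changes and bars the standard error. let-7c-5p, miR-125b-5p and miR-199a-3p lie above 0 at baseline and below 0 at week 4, miR-133a-3p lies above 0 throughout, and miR-203b-3p stands apart at week 8 with 2.13.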

How the data were processed

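Plasma small RNA of 12 rats was sequenced at 4 times. The authors made libraries with a single-adapter ligation protocol, and per the labels and the methods they used cutadapt 3.3, Bowtie 1.3.0, FastQC 0.11.9 and MultiQC 1.10, and assigned reads to miRBase miRNAs. The methods name a rat genome, the labels the human build GRCh38.p12. The methods give a plasma input diluted with water, the labels plasma alone. The values are raw counts as the authors deposited them, whole numbers for 645 miRNAs and 3 spike-ins, without normalization. Spike-ins, 2.55% to 5.75% of the counts at week 4, were left out of totals and tests. Whether reads were independent molecules is not stated, so counts cover counting error only.

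Groups came from the labels, and those of the baseline samples, labelled unknown, from the same animal. The 12 week 4 samples were tested with edgeR 4.0.16 in R 4.3.3 (quasi-likelihood in its earlier form, TMM, two-sided), after an independent filter on mean RPM by the default rule of DESeq2, which kept 588 miRNAs. P values were adjusted by Benjamini-Hochberg and called at an FDR under 0.05. Exact permutation tests used log2(RPM + 1). The differences against other times were contrasts in 1 fit of 8 groups, without a term for the rat. Samples with one number come from one rat. Deviations from the group mean correlated at 0.0977 on average for 72 pairs of samples of one rat and at -0.0193 for samples of different rats. The fit with a block for each rat served as an alternative. Samples of a group differed by 29.7 to 481 chi-square per degree of freedom, so none was a copy. Code was tested on simulated data. Other steps ran in Python 3.11.15 (pandas 2.3.3, numpy 2.4.6, scipy 1.17.1, matplotlib 3.10.9).

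Named were miR-133a-3p and miR-375-3p, the 8 higher and the 8 lower miRNAs with the smallest p among those with at least 10 RPM, miRNAs of the same seed or hairpin, and list members with the largest fold changes. Further list members were named to describe a family. Members and lists were chosen with earlier results of these data known. Alternatives were RLE, library size or UniSp2 scaling, other filters, edgeR version 4, DESeq2 1.42.0, limma-voom with limma 3.58.1, exact tests, all 48 samples, thinned counts, other pseudocounts, distances and a second red blood cell ratio, each rat left out, and, chosen after seeing the data, rats 5 and 7 left out.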

Additional observations from a re-analysis of the deposited data

Results flagged for a closer look

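Of 48 groups of 6 rats tested for a value that stood apart from the rest (18 named miRNAs and 6 sample measures, each in strong and in weak rats), 2 held one, when chance alone gives about 2.40. The miRNAs were tested on log2(RPM + 1) and the sample measures on their own scale. miR-378b in weak rat 7 was at 87.5 RPM, below the 126.7 to 155.6 RPM of the other 5 weak rats. miR-210-5p in weak rat 6 was at 2.64 RPM, below the 8.11 to 14.3 RPM of the other 5. The unlogged RPM scale was also used, chosen after seeing the data. Chance would give about 1.80 there if levels were normally distributed, but unlogged levels can have a long upper tail, so no excess can be read from it. On that scale 6 of the 36 groups for miRNAs held a value that stood apart, and all 6 were the highest of their group. They were miR-184 in strong rat 23 at 82.5 RPM (other strong rats up to 8.12) and in weak rat 26 at 11.6 RPM (other weak rats up to 4.09), miR-133a-5p in weak rat 3 at 28.3 RPM (up to 12.3), let-7c-5p in strong rat 5 at 1474 RPM (up to 813), and miR-205 in strong rat 29 at 10496 RPM (up to 3731) and in weak rat 25 at 31252 RPM (up to 9493). miR-378b and miR-210-5p did not stand apart on that scale.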

How the results depend on the processing

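Strong and weak regenerators differed in 0 miRNAs under every alternative run at week 4, with a smallest FDR between 0.406, under UniSp2 scaling, and 0.983, under DESeq2. The number at an unadjusted p under 0.05, which was 22, was 71 under UniSp2 scaling, 3 after filterByExpr, 6 with a mean of at least 10 RPM, 9 with DESeq2, 6 with limma-voom and 4 with the exact test. With 1 rat left out it lay between 12 and 40 (12 without strong rat 2, 13 without strong rat 17, 14 without strong rat 21 and 40 without strong rat 5). The log2 fold change of miR-133a-3p then lay between 0.25 and 0.98, that of miR-375-3p between -0.26 and -0.08, and that of miR-184 between -0.070, without strong rat 23, and 2.92. The other 17 of the 18 miRNAs named by rule kept their sign and stayed above the FDR threshold under every alternative that gave a value. Their size was not always kept. Under UniSp2 scaling the log2 fold change of miR-450a-5p went from 0.57 to 0.07 and that of miR-378b from 0.42 to 0.08. That of miR-375-3p moved away from 0, from -0.17 to -0.58. Against baseline, leaving out 1 rat gave between 0 and 9 calls, the 9 without strong rat 5. Against week 1 it gave 0 calls, and between 20 and 59 at an unadjusted p under 0.05 in place of 30, with 59 without strong rat 5. Against week 8 it gave 0 or 1, the 1 without weak rat 25 and also without strong rat 29. The rat as a block gave 1 call against week 8, 19 at an unadjusted p under 0.05 against week 1, and changed no other call. The cause of these changes was not tested, apart from the stricter filter without strong rat 5. Sample measures and neighbours kept their side of the threshold. With 6 rats a group, depth from 489502 reads limits miRNAs near 10 RPM to 4.90 reads in the smallest library.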
